A study of Mus musculus with 576 samples.

Results

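Bone morphogenetic proteins (BMPs) are secreted ligands that bind pairs of type I and type II receptor kinases on a cell. The receptors phosphorylate Smad1, Smad5 and Smad9, which enter the nucleus with Smad4 and switch on target genes, among them the *Id* genes. Id proteins bind the partners of bHLH transcription factors and keep them off DNA, and the endocrine regulator Neurog3 is a bHLH factor. Noggin and Gremlin1 hold BMPs outside the cell, and Bmper binds BMPs and can block or assist them.

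The 10 genes described here, of 36658 in the count tables, are the ligands *Bmp2*, *Bmp4*, *Bmp5* and *Bmp7*, the extracellular modulators *Bmper*, *Nog* and *Grem1*, and the targets *Id1*, *Id2* and *Id3*. They were chosen by name, and all 10 are in the tables. They were measured by Smart-seq2, which makes a library from each sorted cell and has no molecular identifiers, in 576 GFP+ cells of the mouse dorsal pancreas at E12.5. The cells came from 3 lines, each on 2 plates of 96 wells. In *Nkx2.5*-Cre;mTmG (Nkx2.5 line, plates 6A and 6B) and *Nkx3.2*-Cre;mTmG (Nkx3.2 line, plates 7A and 7B) embryos, GFP marks cells in which Cre has been active and their descendants, also where the driver is no longer expressed. In Prox1-GFP embryos (Prox1 line, plates 8A and 8B), written Tg(Prox1-EGFP) in the protocol, GFP comes from a *Prox1* transgene, and epithelial cells were found in this line alone. All cells are from GFP+ gates, no group was treated, and the labels name no embryo, so each line is 1 sample. No test was possible, and the intervals given (95%, exact Poisson for levels and exact binomial for shares of cells) cover counting error only. Each line has plates of its own, so plate, and any batch that goes with it, cannot be told apart from line in any comparison between lines. Library numbers of the Prox1 line also stand apart from the other 2.

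After filtering, 549 cells remained, with 83 to 96 per plate and plate medians of 763295 to 1057545 counts per cell. Cells were clustered without the BMP pathway genes and grouped by markers into epithelium-like (86 cells, of which 56 tip-like and 30 trunk-like), endocrine-like (19), mesothelium-like (28 in the Nkx lines) and mesenchyme-like cells (87 and 81 on the Nkx2.5 plates, 92 and 76 on the Nkx3.2 plates, 34 and 44 on the Prox1 plates). The labels held against most defining markers. *Epcam* stood at 850 CPM in epithelium and 0.784 CPM in mesenchyme, and *Gcg* at 42543 CPM in endocrine cells. *Upk3b* stood at 572 CPM in the mesothelial cluster and 0.0105 CPM in mesenchyme, and *Col1a1* at 1499 CPM in mesenchyme. Of the listed mesothelial and mesenchymal markers, 3 did not follow their class. The mesothelial marker *Msln* was near 1 CPM in every class. The mesothelial marker *Nkain4* stood at 10.4 CPM in mesothelium and 82.2 CPM in mesenchyme, and the mesenchymal marker *Foxf1* at 15.5 and 0.519 CPM. The endocrine marker *Neurog3* stood at 34.01 CPM in endocrine cells and 84.7 CPM in epithelium. The trunk marker *Notch2* stood at 267 CPM in epithelium and 311 CPM in mesenchyme. Of 7 endothelial markers *Cdh5* and *Cldn5* had no count in any class, *Tie1* and *Emcn* were below 1 CPM and *Kdr* reached 7.19 CPM, while *Pecam1* (32.7 to 46.3 CPM) and *Egfl7* (18.1 to 45.6 CPM) were found in every class. The mesothelium-like cells were few and uneven over plates (3 on 6A, 2 on 6B, 3 on 7A and 20 on 7B). By the markers of each cell alone, 7 of the 28 would be mesenchyme-like, 3 of 5 in the Nkx2.5 line and 4 of 23 in the Nkx3.2 line. The 2 Prox1-line cells of their cluster held endocrine progenitor genes and are kept out of the mesothelial values. In these data *Bmp7* was the ligand found in most epithelium-like cells, and *Bmp4* and *Bmp5* were found almost entirely outside the epithelium. The modulators *Bmper*, *Nog* and *Grem1* were scarce in every class. The *Id* genes were detected in every class, at their lowest mesenchymal level in the Nkx2.5 line.

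Levels are in CPM, counts added up within a group of cells and scaled to the total of that group, and a cell counts as detected for a gene with at least 1 count. *Bmp7* (chr2:172868012-172940321, minus strand, GRCm38) encodes a BMP found in many embryonic epithelia. It stood at 245 CPM in tip-like cells (240.5 to 249), with 305 CPM on plate 8A and 191.5 CPM on plate 8B, and was detected in 53 of 56 cells (94.6%, 85.1 to 98.9). In trunk-like cells it stood at 122.3 CPM (117.7 to 126.9), with 143.999 and 76.3 CPM on the same plates, and was detected in 25 of 30 cells. The tip-like level was above the trunk-like level on both plates. Plate 8A held 21 trunk-like cells and plate 8B 9, of which 1 gave 35.2% of the *Bmp7* counts. Single tip-like cells ranged up to 627 CPM around a median of 228 CPM, and the trunk-like median was 96.3 CPM.

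Endocrine-like cells held little *Bmp7*. Their level was 6.64 CPM (5.45 to 8.07), with 1.29 CPM on plate 8A and 10.6 CPM on plate 8B, and 4 of 19 cells were detected, 1 of which gave 57.3% of the counts. In mesenchyme the Prox1 line held *Bmp7* at 43.7 CPM (35.1 and 49.7 CPM by plate), above 16.98 CPM (15.6 and 19.1 CPM) in Nkx3.2-line and 14.8 CPM (20.6 and 8.56 CPM) in Nkx2.5-line cells. The plates of the Nkx2.5 and Nkx3.2 lines overlapped, and those of the Prox1 line lay above both. *Bmp7* was detected in a minority of mesenchymal cells in each line, 32.1%, 33.3% and 21.4%, so that the median cell was at 0 in each. Mesothelium-like cells stood at 32.005 CPM (29.8 to 34.3) with 12 of 28 cells detected, of which 11 were on plate 7B.

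*Bmp4* (chr14:46383520-46390669, minus strand), a ligand known from embryonic mesoderm, was the reverse. In the epithelium it was found in 2 of 86 cells (2.33%, 0.283 to 8.15), and 1 tip-like cell on plate 8B held 98.7% of the counts there. It was found in 0 of 19 endocrine-like cells, which allows a share of up to 15.8% counted as 3 cells and up to 17.6% by the exact interval. In mesothelium-like cells it stood at 60.6 CPM (57.6 to 63.8) with 16 of 28 cells detected (57.1%, 37.2 to 75.5), and in both lines, at 68.99 CPM in the 5 cells of Nkx2.5 origin and 58.4 CPM in the 23 of Nkx3.2 origin. In mesenchyme the Nkx3.2 line stood at 49.5 CPM (55.9 and 39.7 CPM by plate), the Prox1 line at 22.2 CPM (37.1 and 11.9 CPM) and the Nkx2.5 line at 17.3 CPM (12.1 and 22.96 CPM). Both Nkx3.2 plates lay above every other mesenchymal plate, and the plates of the other lines overlapped. Detection followed the same order at a common depth. With each cell thinned to 100000 counts, *Bmp4* was found in 37.5% of Nkx3.2, 20.5% of Prox1 and 13.1% of Nkx2.5 mesenchymal cells (42.9%, 23.1% and 17.9% before thinning).

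*Bmp5* (chr9:75775364-75900310, plus strand) was low and patchy. It stood at 23.1 CPM in Prox1-line mesenchyme (30.3 and 18.1 CPM by plate), against 6.63 CPM (7.10 and 5.91 CPM) in Nkx3.2-line and 4.82 CPM (2.78 and 7.01 CPM) in Nkx2.5-line mesenchyme. It was detected in 18 of 78 Prox1-line cells and 16 cells of each Nkx line (9.52%), and in the Nkx3.2 line 1 cell held 31.9% of the counts. In epithelium it was at 0.0317 CPM, and 1 of 28 mesothelium-like cells was detected. *Bmp4* and *Bmp5* overlap noncoding genes (*Gm15217* and *Gm15222*, and *Gm47723* and *Gm26903*). *Gm15217* had no counts and the other 3 were not analysed here. The protocol names no strand-keeping step, so reads of overlapping genes cannot be told apart by strand.

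*Bmp2* (chr2:133552159-133562885, plus strand) was near absent, with 324 counts in 7 of 549 cells. A single mesenchyme-like cell of the Nkx2.5 line held 57.7% of these counts, at 143.2 CPM, and an endocrine-like cell held 68. At this depth *Bmp2* cannot be ordered between classes.

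**Figure D1:**
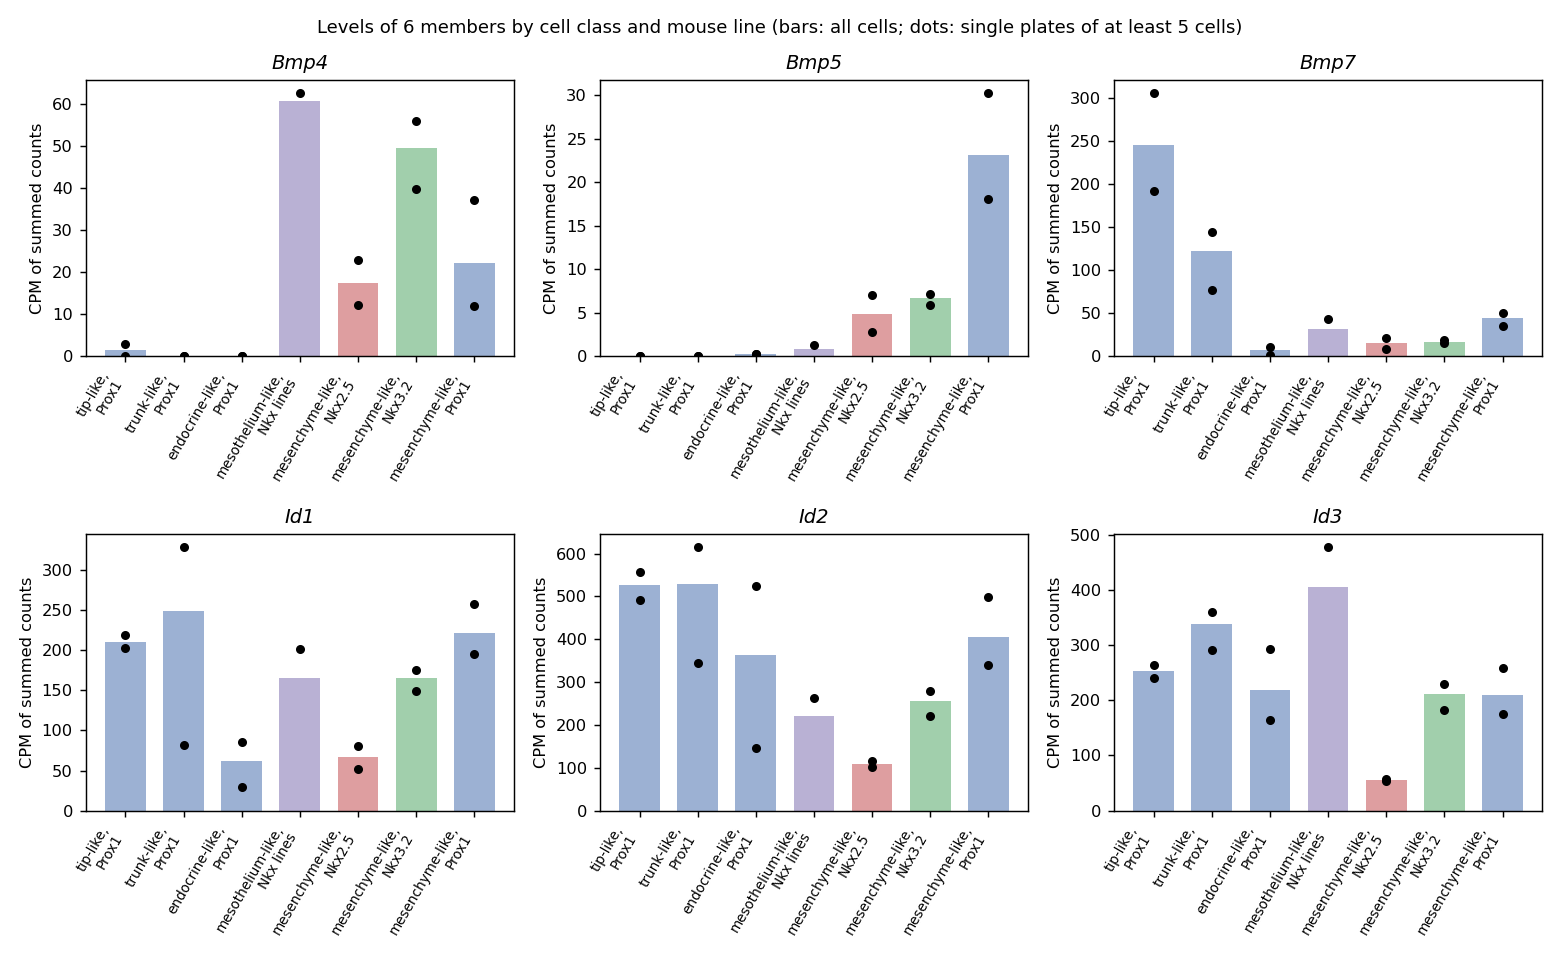
Level of 6 members in CPM (linear axis from 0, with a scale of its own for each gene) by class and line. Bars give all cells of a group and dots the single plates with at least 5 cells. Bmp7 is highest in tip-like cells at 245 CPM, Bmp4 in mesothelium-like cells at 60.6 CPM, and the 3 Id genes are lower in Nkx2.5-line than in Nkx3.2-line mesenchyme on each plate.

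The extracellular modulators *Nog*, *Grem1* and *Bmper* each gave fewer counts in all than *Bmp2*, but *Nog* and *Grem1* were found in more cells. *Nog* (chr11:89300638-89302332, minus strand), which encodes Noggin, was found in 18 of 549 cells, and 11 of them held at least 5 counts. It was found in 6 of 28 mesothelium-like cells (21.4%, 8.30 to 40.95), all in the Nkx3.2 line, and in 7 of 336 mesenchyme-like cells of the Nkx lines (2.08%, 0.842 to 4.25). At 100000 counts per cell these shares were 10.7% and 0.893%. It was found in 0 of 86 epithelium-like cells, which allows a share of up to 3.49% counted as 3 cells and up to 4.199% by the exact interval. The level in mesothelium-like cells was 1.20 CPM (0.802 to 1.72), and the highest single cell, at 34.99 CPM, was a mesenchyme-like cell of the Nkx2.5 line.

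*Grem1* (chr2:113746164-113758646, minus strand), which encodes Gremlin1, gave 37.4 counts over 22 cells, and no cell reached 5 counts. Its shares in endocrine-like (3 of 19) and mesothelium-like cells (4 of 28) fell to 0 at 100000 counts per cell, so no order between classes was detectable. *Bmper* (chr9:23223076-23485200, plus strand) had 89 counts in 2 cells, and 88 of them were in a mesothelium-like cell of the Nkx3.2 line, at 105.3 CPM.

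**Figure D2:**
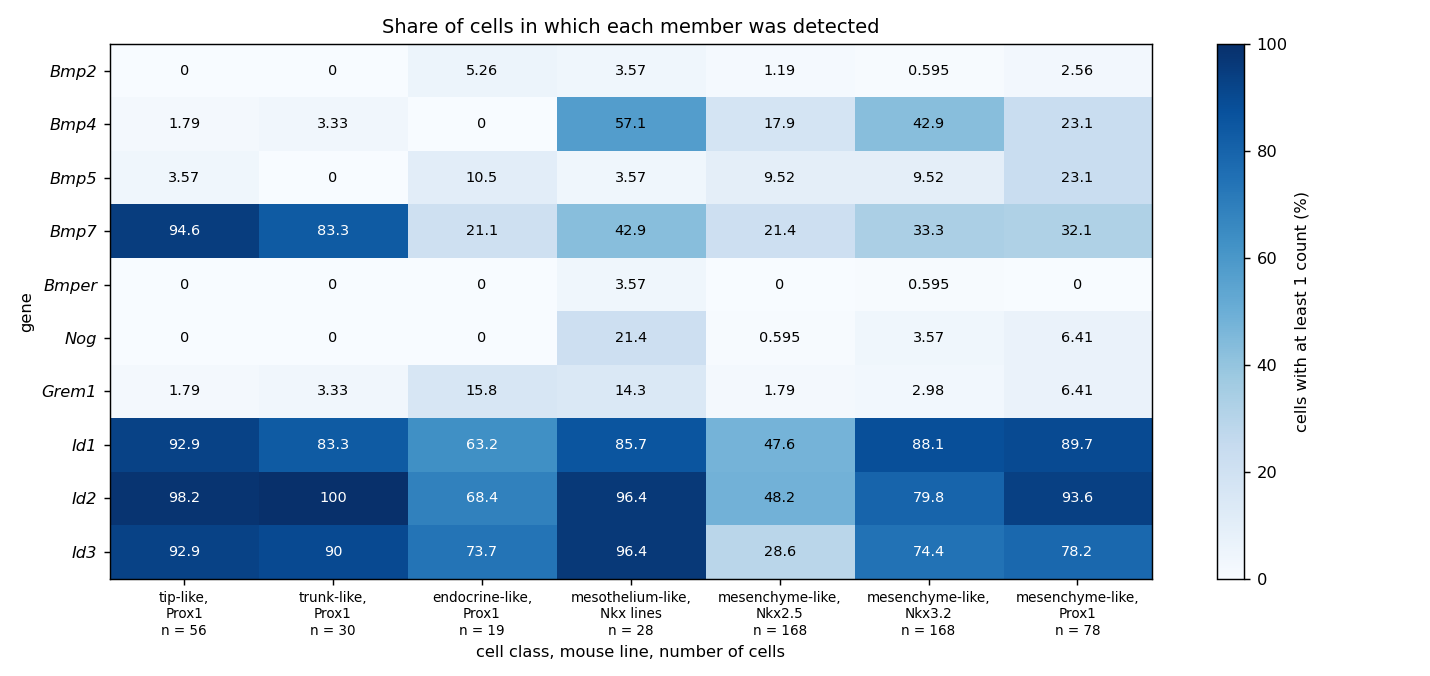
Share of cells with at least 1 count of each member (percent) by class and line, as a colour scale with the percent written in each cell of the grid and the number of cells under each column. Bmp7 was detected in 94.6% of tip-like cells and Id3 in 28.6% of Nkx2.5-line mesenchyme-like cells against 74.4% in the Nkx3.2 line.

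The targets were expressed in all classes. *Id1* (chr2:152736251-152737410, plus strand) stood at 210.1 CPM in tip-like cells (219 and 202 CPM on plates 8A and 8B) and 250 CPM in trunk-like cells (329 and 81.97 CPM). The plates of trunk-like cells were far apart and enclosed those of tip-like cells, so the classes cannot be ordered. The trunk-like value of plate 8B rests on 9 cells, 1 of which gave 36.8% of the counts, and that of plate 8A on 21. In endocrine-like cells *Id1* was at 61.4 CPM (29.6 and 85.1 CPM), with 12 of 19 cells detected. In mesenchyme it stood at 221 CPM in the Prox1 line (258 and 196 CPM), 165.2 CPM in the Nkx3.2 line (175.1 and 149.8 CPM by plate) and 66.9 CPM (80.98 and 51.8 CPM) in Nkx2.5-line cells. The 3 lines did not overlap by plate, and the share of detected cells was 89.7%, 88.1% and 47.6%.

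*Id2* (chr12:25093799-25097140, minus strand) stood at 526 CPM in tip-like and 528 CPM in trunk-like cells and was detected in 85 of 86 epithelium-like cells. It was uneven in endocrine-like cells, at 145.01 CPM on plate 8A and 524 CPM on plate 8B. In mesenchyme the Prox1 line stood at 404 CPM (497 and 340.1 CPM), the Nkx3.2 line at 257 CPM (279 and 221 CPM) and the Nkx2.5 line at 108.3 CPM (115.3 and 100.7 CPM). Here too the lines did not overlap by plate. Single mesenchymal cells reached 2366 CPM.

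*Id3* (chr4:136143497-136145755, plus strand) stood at 406 CPM (398 to 414) in mesothelium-like cells, and 27 of 28 were detected. This level was made up mostly by plate 7B. It was at 448 CPM in the Nkx3.2 line (315 and 478 CPM on plates 7A and 7B) and at 244.7 CPM in the 5 cells of the Nkx2.5 line (157.6 and 352 CPM on plates 6A and 6B), and the Nkx2.5 value lies below those of tip-like and trunk-like cells. It stood at 253 CPM in tip-like, 338 CPM in trunk-like and 219 CPM in endocrine-like cells, of which 1 gave 41.5% of the endocrine counts. In mesenchyme the Nkx3.2 line was at 211 CPM (229.9 and 182.6 CPM by plate), the Prox1 line at 209.9 CPM (259 and 175.7 CPM) and the Nkx2.5 line at 55.1 CPM (57.4 and 52.7 CPM). The Nkx3.2 and Prox1 lines overlapped by plate, and both Nkx2.5 plates lay below them.

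The sequence near the start of these genes was searched for the Smad-binding letters GTCT (AGAC on the other strand) and the GC-rich Smad letters GGCGCC, which read the same on both strands and do not overlap GTCT. Of the members, 6 had an entry among the 32851 RefSeq promoters (GRCm38.p6, 250 bases before to 50 after the start), and *Bmp2*, *Bmp7*, *Nog* and *Id1* had none. GGCGCC lay in the *Id2* window, 231 bases before the start, and in the *Grem1* window, and in 11.87% of all promoters. GTCT or AGAC lay in all 6 windows and in 87.98% of all promoters. The stretches below show 1 match for each of the 4 members with a promoter entry whose levels differed between classes or lines, with the letters searched for in capitals, on the strand of the gene.
Id2, chr12:25096306-25096335, minus strand: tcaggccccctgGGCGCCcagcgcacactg
Id3, chr4:136143741-136143770, plus strand: tggacccttggcgGTCTgttttgaataagg
Bmp4, chr14:46390875-46390904, minus strand: ttggaaggtacagAGACtagttggtgcatg
Bmp5, chr9:75775218-75775247, plus strand: atagatcactgttGTCTgttacatgcatgg
In GENCODE M21 the *Id3* stretch lies in the 5′ UTR of its longest transcript, the *Id2* stretch in the first intron of its longest transcript, and the *Bmp4* and *Bmp5* stretches upstream of the gene. These are matches of letters, and binding of Smads was not measured.

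Levels of different genes can be set side by side only per length. Per kilobase of the median coding transcript, *Id2* led in tip-like cells at 414 CPM per kb, *Bmp7* was the highest ligand there at 66.7 CPM per kb, and *Bmp4* was at 0.800 CPM per kb. In mesothelium-like cells *Id3* led at 317 CPM per kb, and among ligands *Bmp4* (32.8 CPM per kb) lay above *Bmp7* (8.72 CPM per kb). In mesenchyme-like cells *Bmp4* (16.7 CPM per kb) again lay above *Bmp7* (5.50) and *Bmp5* (2.19 CPM per kb) over all lines. This order held in the Nkx2.5 (9.37 against 4.03 CPM per kb for *Bmp7*) and Nkx3.2 lines (26.8 against 4.63 CPM per kb). In the Prox1 line *Bmp4* and *Bmp7* were level, at 11.997 and 11.9 CPM per kb, and with the longest transcript *Bmp4* fell to 10.7 CPM per kb. The order of the *Id* genes within a class was less firm. In mesenchyme *Id2* (167.8), *Id1* (123.98) and *Id3* (110.3 CPM per kb) became 108.2, 111.9 and 110.3 CPM per kb with the longest transcript.

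The first comparison asks how epithelium-like and mesenchyme-like cells of the same plates differ. A gene counted as apart if it differed at least 2-fold in the same direction in every pair of plates or lines compared and reached 10 CPM on the higher side. Of 10818 genes that reached this level 21.6% were apart (11% higher and 10.6% lower in epithelium), and of the 6 members that reached it 3 were. *Bmp7* was 4.73-fold higher in epithelium (207 against 43.7 CPM, counting interval 4.53 to 4.93), 6.88-fold on plate 8A and 3.36-fold on plate 8B. *Bmp4* was 21.5-fold lower (1.03 against 22.2 CPM). It was at 0.0258 CPM, which is 1 count, against 37.1 CPM on plate 8A, and 5.43-fold lower on plate 8B, where the single tip-like cell lay. *Bmp5* was at 0.00137 times the mesenchymal level (counting interval 0.000144 to 0.00431), on a total near 2 counts in the epithelium. The *Id* genes were within 2-fold. *Id1* was at 222 CPM in epithelium and 221 CPM in mesenchyme, with ratios of 0.903 to 1.02 by plate, *Id2* was 1.30-fold (1.09 to 1.503) and *Id3* 1.33-fold higher (1.11 to 1.54). The median log2 ratio of the 6 members was 0.19, beside -0.01 over all genes that reached the level.

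The second comparison sets endocrine-like against epithelium-like cells of the Prox1 line. Here 30.1% of 11087 genes were apart (13.2% higher and 16.9% lower), and of 4 members that reached 10 CPM 2 were, both lower. *Bmp7* was 31.1-fold lower in endocrine-like cells (6.64 against 207 CPM), 187.5-fold on plate 8A and 15.7-fold on plate 8B. *Id1* was 3.62-fold lower (61.4 against 222 CPM), 8.86-fold on plate 8A and 2.08-fold on plate 8B. *Id2* was 0.688 times the epithelial level (0.269 and 1.03 by plate) and *Id3* 0.784 times (1.02 and 0.609), so their ratios went in opposite orders on the plates. On plate 8A 1 of 9 endocrine-like cells, at 1599 CPM, held 72.9% of the *Id3* counts. The median log2 ratio of the 4 members was -1.19, beside -0.12 over all genes. With 9 and 10 endocrine-like cells on the plates, single cells weigh on these levels.

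The third comparison sets mesothelium-like against mesenchyme-like cells of the Nkx lines. Of 10640 genes 14% were apart (5.66% higher and 8.31% lower), and of 5 members 1 was. *Id3* was 3.16-fold higher in mesothelium-like cells (406 against 128.2 CPM, 3.09 to 3.23), 4.44-fold in the Nkx2.5 line and 2.12-fold in the Nkx3.2 line. The Nkx2.5 value rests on 5 cells, of which 3 lay near the border of the class and 1 carried 2 immune markers. With each cell classed by its own markers the ratio was 3.33-fold, over 21 cells and with the Nkx3.2 line as the only pair. *Bmp4* was 1.87-fold (3.98 and 1.179 by line) and *Bmp7* 2.02-fold higher (1.28 and 2.09), so neither reached 2-fold in both lines. The *Bmp7* difference rests on plate 7B. Without it the ratio was 0.744, and the mesothelium-like cells of plates 6B and 7A had no *Bmp7* count. *Id2* was 1.25-fold higher (1.61 in the Nkx2.5 and 0.911 in the Nkx3.2 line). *Id1* was 1.47-fold higher over both lines together but 0.440 times the mesenchymal level in the Nkx2.5 line and 1.22 times in the Nkx3.2 line. The pooled ratio lies outside these values because 23 of 28 mesothelium-like cells came from the Nkx3.2 line, which gave the same number of mesenchyme-like cells as the Nkx2.5 line and had the higher *Id1* level. The median log2 ratio of the 5 members was 0.88, beside -0.01 over all genes.

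**Figure D3:**
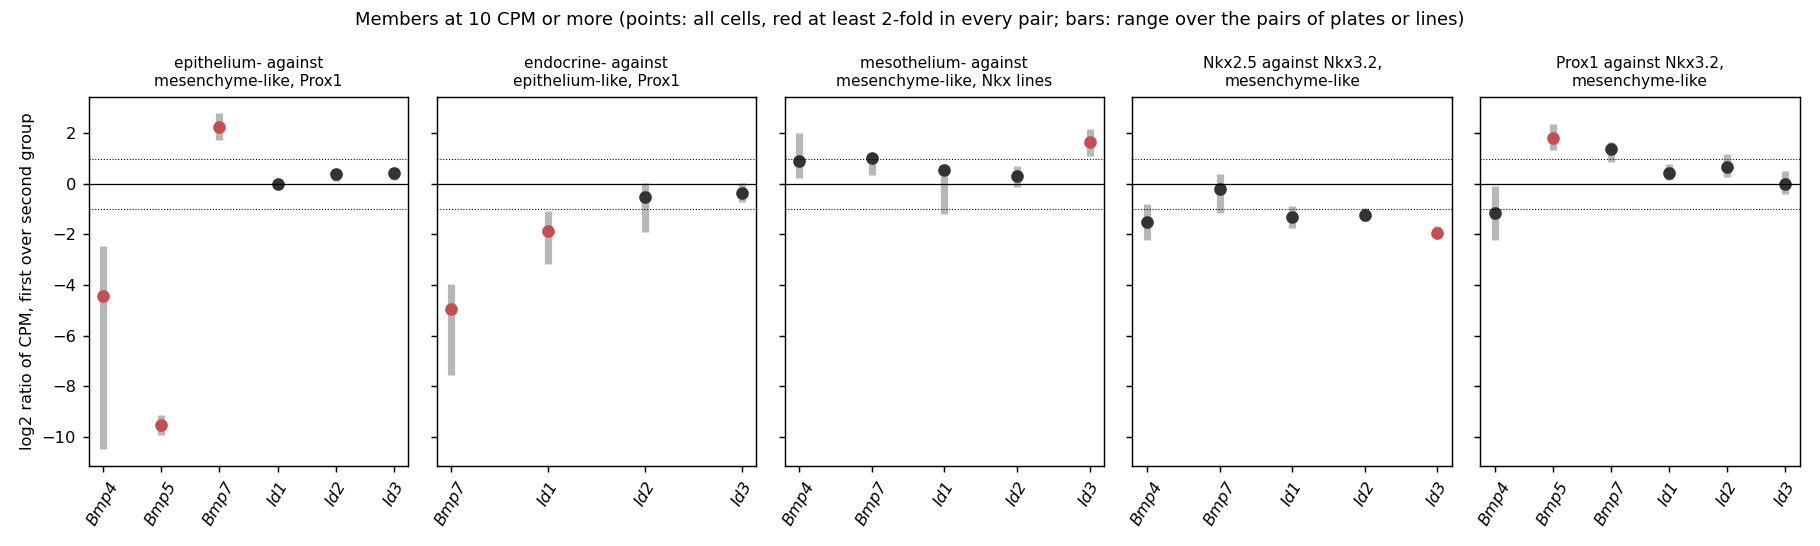
Ratio of levels for members that reached 10 CPM in each of the 5 comparisons, on a log2 axis of the first over the second group, with dotted lines at 2-fold. Points give all cells, bars the range over the pairs of plates or lines compared, and red marks members at least 2-fold apart in every pair, such as Id3 in Nkx2.5-line against Nkx3.2-line mesenchyme, where the pair ratios ran from 0.229 to 0.314.

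The fourth comparison asks whether mesenchyme from the *Nkx2.5* and *Nkx3.2* lineages differs. Only 3.28% of 10134 genes were apart (1.3% higher and 1.97% lower in the Nkx2.5 line), and of 5 members 1 was. *Id3* was 3.84-fold lower in the Nkx2.5 line (55.1 against 211 CPM), 3.18-fold to 4.36-fold over the 4 pairs of plates. *Id1* was 2.47-fold lower (1.85 to 3.38), *Id2* 2.37-fold (1.92 to 2.77) and *Bmp4* 2.86-fold lower (1.73 to 4.63), each below 2-fold in some pair. *Bmp7* was at 0.872 times the Nkx3.2 level (0.449 to 1.32), so its direction changed between pairs. The median log2 ratio of the 5 members was -1.29, beside 0.01 over all genes.

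The lines also differed in how many cells had *Id* transcripts. None of the 3 *Id* genes was detected in 47 Nkx2.5-line mesenchymal cells (27.98%) but in 2 Nkx3.2-line (1.19%) and 1 of 78 Prox1-line cells. All 3 were detected in 27 (16.1%), 95 (56.5%) and 56 cells (71.8%) of these lines. In the other classes they were detected together in 50 of 56 tip-like (89.3%), 24 of 30 trunk-like and 8 of 19 endocrine-like cells (42.1%). Of the mesothelium-like cells 22 of 23 in the Nkx3.2 line and 2 of 5 in the Nkx2.5 line held all 3. The lines differed in gene detection as a whole. Among 3502 genes at 50 to 400 CPM in the mesenchyme of every line, the median gene was detected in 64.9% of Nkx2.5-line, 83.9% of Nkx3.2-line and 74.4% of Prox1-line cells. In the Nkx2.5 line *Id1* (47.6%), *Id2* (48.2%) and *Id3* (28.6%) fell under the lower quartile of these genes (51.2%). In the Nkx3.2 line *Id1* (88.1%), *Id2* (79.8%) and *Id3* (74.4%) lay above theirs (72.6%). The 3502 genes were not matched to the *Id* genes by level. The *Id* genes stood at 55.1 to 108.3 CPM in the Nkx2.5 line and at 165.2 to 257 CPM in the Nkx3.2 line. Their places among these genes therefore cannot be told apart from their levels. Within Nkx2.5-line cells thinned to 100000 counts *Id3* was found in 26.8%, and in 72.6% of Nkx3.2-line cells. Among the cells with *Id3*, the median level was 136.6 CPM in the Nkx2.5 and 170.4 CPM in the Nkx3.2 line.

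**Figure D4:**
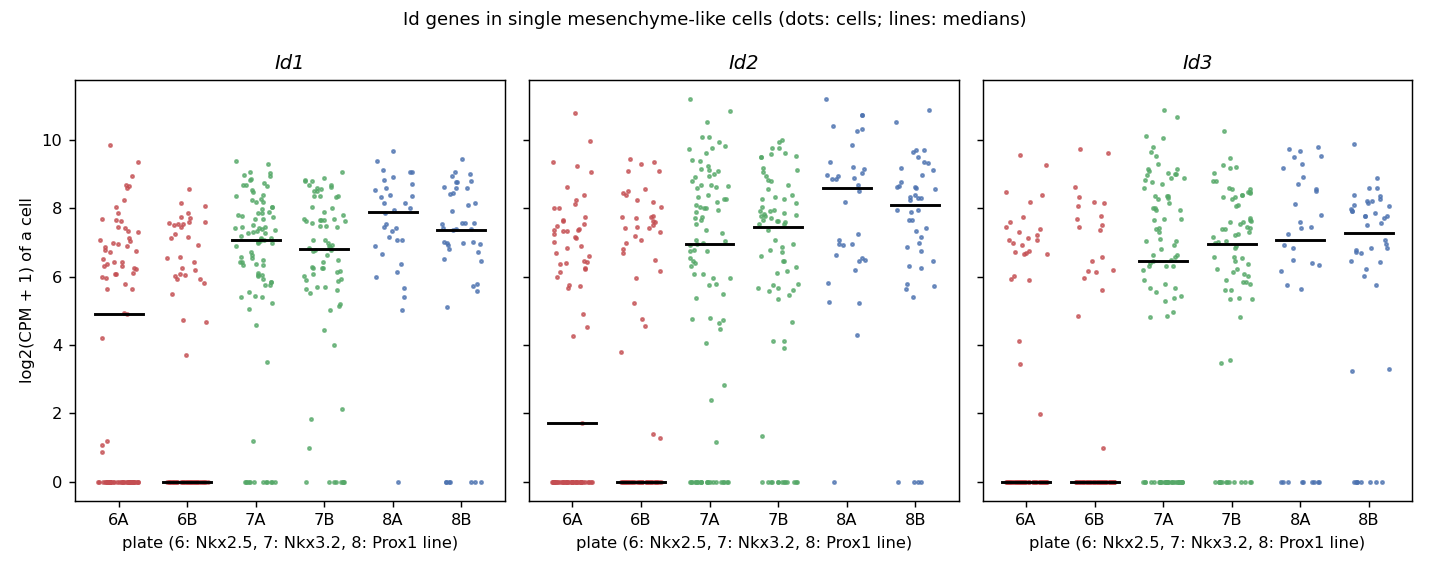
Level of Id1, Id2 and Id3 in each mesenchyme-like cell by plate, as log2(CPM + 1) with 1 point per cell and a line at the median of the plate. Most Nkx2.5-line cells on plates 6A and 6B lie at 0 for Id3, and 74.4% of Nkx3.2-line cells lie above it.

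Y-linked counts moved with the line. At least 10 counts of 4 Y-linked genes were found in 96.6% and 80.2% of mesenchymal cells on the Nkx2.5 plates and in 7.61% and 3.95% on the Nkx3.2 plates, so for this comparison sex and line cannot be told apart. On the Prox1 plates the shares were 11.8% and 6.82%. On the Nkx2.5 plate 6B, *Id3* stood at 42.4 CPM in the 65 cells with these counts and 93.3 CPM in the 16 cells without, *Id2* at 75.9 and 197.6 CPM, *Bmp4* at 19.4 and 36.8 CPM, and *Id1* at 53.9 and 43.3 CPM. On the Nkx3.2 plate 7A, *Id3* stood at 635 CPM in 7 cells with and 197.1 CPM in 85 cells without them, *Id2* at 448 and 266 CPM, *Id1* at 236 and 170.1 CPM, and *Bmp4* at 53.04 and 56.1 CPM. On plate 6B *Id2*, *Id3* and *Bmp4* were thus lower in the cells with these counts, as the Nkx2.5 line was, while on plate 7A the *Id* genes were higher in them. The part of sex in the line difference was not tested. Cells with at least 10 counts each of at least 2 endothelial markers also differed in number, at 22.02% of Nkx2.5-line and 47.6% of Nkx3.2-line mesenchyme. The summed level of the 7 markers there was 71.1 and 80.03 CPM (66.9 to 75.1 and 71.4 to 93.4 CPM by plate). The same share was 61.6% in epithelium-like and 47.4% in endocrine-like cells, and the defining markers *Cdh5* and *Cldn5* were at 0. The part of the cells with these markers in the line difference was not tested.

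The lines filled the mesenchymal clusters unequally. Cluster 2 (led by *Pcp4l1* and *Nrg1*) had 60 of its 70 cells from the Nkx2.5 line and the lowest *Id1* and *Id3* levels of the mesenchyme, 65.2 and 57.5 CPM. Cluster 6, with the mural markers *Acta2* and *Tagln*, had 36 of 44 cells from the Nkx3.2 line, *Id2* at 426 CPM and *Id3* at 315 CPM. Cluster 9 had 18 of 25 cells from the Prox1 line and the highest mesenchymal levels of *Id1* (292 CPM), *Id2* (880 CPM) and *Id3* (423 CPM), beside low *Bmp4* (10.9 CPM). *Bmp4* was highest in cluster 5, at 58.5 CPM.

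Within the 4 clusters that both Nkx lines filled with at least 15 cells, the lower *Id3* of the Nkx2.5 line was found again. It was at 58.3 against 165.6 CPM in cluster 0, 28.5 against 156.6 CPM in the proliferating cluster 1, 124.6 against 182.1 CPM in cluster 3 and 8.75 against 77.2 CPM in cluster 5. *Id1* was lower in all 4 as well, from 1.40-fold in cluster 5 to 2.85-fold in cluster 1. *Id2* was alike in cluster 0 (110.2 and 113.7 CPM) and lower in the others (106.2 against 164.3, 73.5 against 242 and 31.7 against 111.2 CPM). *Bmp4* was lower in all 4, and in cluster 5 it was at 0.0668 CPM in 15 Nkx2.5-line cells, which is 1 count, and at 117.03 CPM in 23 Nkx3.2-line cells. Over these 4 clusters together the *Id3* level of the Nkx2.5 line was 0.357 times that of the Nkx3.2 line, which is still apart, and that of *Id2* was 0.542 times. The Nkx2.5-line cells were uneven over plates 6A and 6B, with 20 and 1 in cluster 3 and 3 and 12 in cluster 5. In cluster 2, with 60 Nkx2.5-line and 5 Nkx3.2-line cells, *Id2* was higher in the Nkx2.5 line (141.8 against 77.9 CPM). *Id1*, *Id3* and *Bmp4* were lower there. Cluster 3 was led by the immune genes *C1qb* and *C1qc*, and 2 of its 62 cells carried counts of immune markers. The splenopancreatic mesenchyme markers *Robo2* and *Kazald1* were also among its leading genes. Averaged over the listed markers, log2(CPM + 1) in this cluster was 5.72 for mesenchyme and 0.2235 for immune cells.

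**Figure D5:**
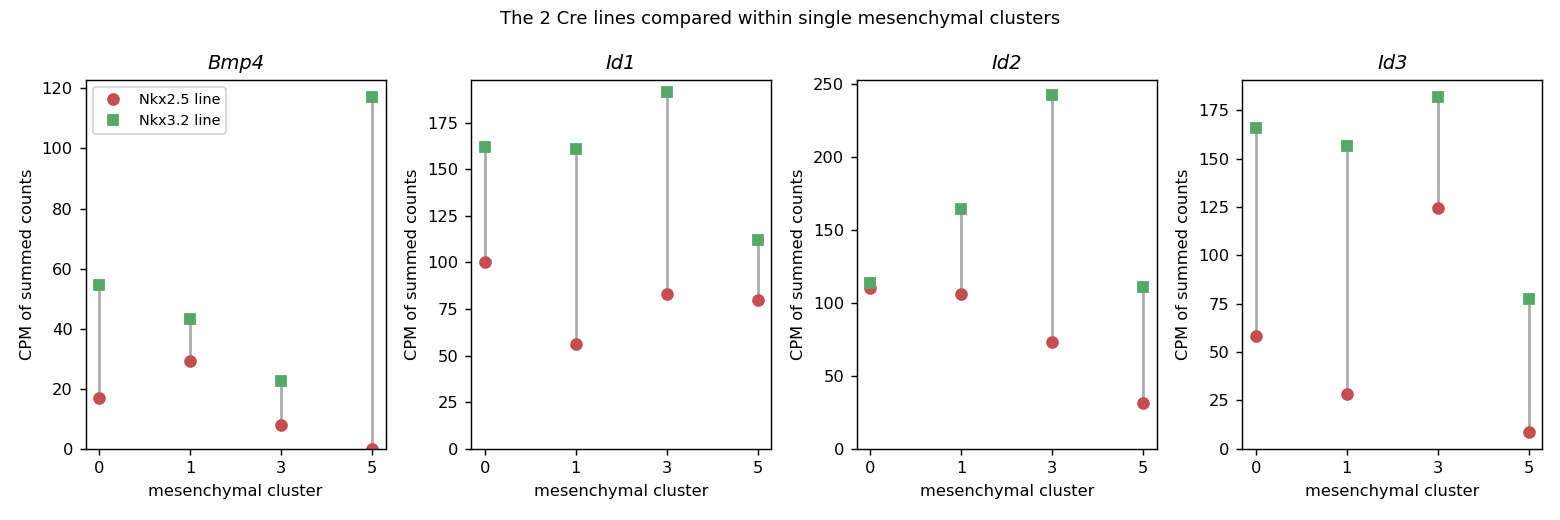
Levels of Bmp4, Id1, Id2 and Id3 in CPM (linear axis from 0) in Nkx2.5-line (circles) and Nkx3.2-line cells (squares) of the same mesenchymal cluster, for the 4 clusters with at least 15 cells of each line. Id3 of the Nkx2.5 line lies below the Nkx3.2 line in clusters 0, 1, 3 and 5, as at 8.75 against 77.2 CPM in cluster 5.

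The fifth comparison sets Prox1-line against Nkx3.2-line mesenchyme, which shares the Nkx3.2 cells with the fourth. Of 10151 genes 2.79% were apart (1.19% higher and 1.6% lower in the Prox1 line), and of 6 members 1 was. *Bmp5* was 3.48-fold higher (23.1 against 6.63 CPM), 2.55-fold to 5.12-fold over 4 pairs of plates. The pairs with the Nkx3.2 plate 7B rest on few cells. There *Bmp5* was detected in 5 of 76 cells, and 1 cell held 91.6% of the counts. *Bmp7* was 2.57-fold higher (1.84 to 3.18) and *Bmp4* 2.23-fold lower (1.07 to 4.71), both below 2-fold in some pair. *Id1* was 1.34-fold (1.12 to 1.72) and *Id2* 1.58-fold higher (1.22 to 2.25), and *Id3* was at 0.993 times (0.764 to 1.42). The median log2 ratio of the 6 members was 0.54, beside 0.02 over all genes. *Bmp5* was higher in cluster 0 (29.2 against 11.3 CPM), cluster 1 (25.99 against 2.21 CPM), cluster 2 (56.4 against 0 CPM, with 5 cells of each line) and cluster 9 (19.1 CPM in 18 cells against 0 CPM in 6). The levels were close in cluster 5 (6.36 against 6.97 CPM) and cluster 6 (13.9 against 15.7 CPM). There 1 cell held 84.7% of the Nkx3.2 and 100% of the Prox1 counts of cluster 5 and 65.9% of the Nkx3.2 counts of cluster 6. Single cells also weighed on the clusters with higher *Bmp5*. Over all lines 1 cell held 64.5% of the counts of cluster 2 and 51.5% of those of cluster 9. Of the Prox1 counts 1 cell held 31.03% in cluster 0 and 38.1% in cluster 1.

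Next, the members were compared with each other, cell by cell and group by group. *Bmp4* and *Bmp7* were both detected in 24 Nkx3.2-line cells, 14.29%, and the product of their single shares is also 14.29%. As a description over cells that share libraries and depth, Spearman's rho of *Id2* with *Id3* was 0.40 in Nkx2.5-line, 0.53 in Nkx3.2-line and 0.52 in Prox1-line mesenchyme, and that of *Id1* with *Bmp4* was 0.12, -0.06 and -0.02 in the same order. Over 18 groups of cluster and line with at least 10 cells, Pearson's r of log2(CPM + 1) was 0.83 for *Id2* with *Id3*, 0.69 for *Id1* with *Id3*, 0.59 for *Bmp7* with *Id1* and 0.15 for *Bmp4* with *Id1*. The groups share libraries, lines and depth. Among 13169 genes the most alike were *Tns3* (0.91), *Cox6b2* (0.90) and *Pcdhgc3* (0.88) for *Bmp4*, *Dpf2* (0.71), *Atp7a* (0.70) and *Cdyl* (0.69) for *Bmp5*, and *Med19* (0.87), *Rps26-ps1* (0.83) and *Vmn2r97* (0.81) for *Bmp7*. For *Id1* they were *Rpl30* (0.85), *Rps7* (0.84) and *Tpi1* (0.84), for *Id2* *Kdm6a* (0.85), *Rpl14-ps1* (0.85) and *Id3* (0.83), and for *Id3* *Gpi1* (0.88), *Scamp1* (0.86) and *Endod1* (0.86). *Rps26-ps1* and *Rpl14-ps1* are pseudogenes whose reads may be shared with their parent genes.

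A list of 52 other pathway genes, of which 51 were in the tables, gives the setting. Between epithelium and mesenchyme of the Prox1 line 25 of them reached 10 CPM, with 4 higher and 7 lower in epithelium, beside 11% higher and 10.6% lower over all genes. The higher genes were the receptor *Acvr2b* (2.20-fold), the co-receptor *Rgma* (2.82-fold), and the antagonists *Fstl3* (22.9 against 1.95 CPM) and *Chrdl1* (17.4 against 0 CPM, at least 345-fold against 3 counts). The lower genes were the ligand *Gdf6* (0 against 27.7 CPM, at least 672-fold lower), the co-receptor *Eng* (0.0138 against 51.4 CPM), the extracellular genes *Fstl1* (125.6 against 678 CPM), *Nbl1* (5.93 against 49.8 CPM) and *Bmp1*, which encodes a protease and no BMP ligand (46.3 against 96.4 CPM), the target *Msx1* (0 against 33.002 CPM) and the Smad repressor *Ski* (49.1 against 118.2 CPM). Type I receptor *Bmpr1a* was measured at 44.8 to 89.7 CPM in every class and line, and *Smad1* at 16.7 to 47.9 CPM. Unlike *Bmper*, *Nog* and *Grem1*, the extracellular modulators *Twsg1* (84.2 to 259 CPM) and *Fstl1* (35.9 to 967 CPM) were well above 10 CPM in all of these groups.

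In endocrine-like against epithelium-like cells, 23 of these genes reached 10 CPM, with 1 higher (*Bmp1*, 3.44-fold) and 3 lower (*Rgma*, *Chrdl1* and *Fstl3*), beside 13.2% and 16.9% over all genes. The antagonist *Chrd* was at 17.4 CPM in endocrine-like cells and 0 in tip-like and trunk-like cells. Its endocrine counts lay on 1 plate alone, so *Chrd* was not apart. In mesothelium-like against mesenchyme-like cells, 25 reached it, with *Chrdl1* higher (11.3 against 1.32 CPM) and *Rgmb* (10.8 against 53.5 CPM), *Eng* (0.0826 against 76.8 CPM), *Smad5* (67.3 against 167.4 CPM) and *Msx1* (6.57 against 45.2 CPM) lower, beside 5.66% higher and 8.31% lower over all genes. The type I receptor *Bmpr1b* was at 22.7 CPM in mesothelium-like cells and at most 0.168 CPM in the mesenchyme of any line, without being apart in both lines. Between the Nkx lines 1 of 25 was apart, the BMP target *Atoh8*, lower in the Nkx2.5 line (3.22 against 13.1 CPM), beside 3.28% of all genes. The median log2 ratio of the 25 genes there was 0.19, beside 0.01 over all genes. For the 8 feedback and other target genes among them it was 0.05, so *Atoh8* does not stand for these targets as a set. Between the Prox1 and Nkx3.2 lines 1 of 25 was apart, beside 2.79% of all genes. It was the receptor *Acvrl1*, lower in the Prox1 line (3.75 against 12.5 CPM).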

How the data were processed

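The authors trimmed reads with Trim Galore 0.6.5, quantified them with kallisto (GRCm38) and deposited estimated counts per gene and cell, summed with tximport and not normalized. The annotation release is not given in the sources used here. Names and positions come from GENCODE M21 and promoters from RefSeq. Cells were kept from 1000 genes and 100000 counts upward if mitochondrial counts made up no more than 30%. They were clustered with Seurat 5.3.0 in R 4.3.3 (20 principal components, resolution 1.9, cell cycle difference regressed out, 52 listed pathway genes and the members left out of the variable genes) and named from fixed marker lists. No doublet caller was run on these single-cell wells. Names rebuilt here may differ from those of the study. For counting, levels per gene rest on 224814 to 1512736 counts per cell, and PCR copies are counted.

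Samples were grouped by the genotype label, with plates from the titles. With 1 sample per line no test was run. Values are given to 3 significant digits or more, and digits beyond the third add no precision. Levels, 2-fold calls and shares were computed in Python 3.11.15 (numpy 2.4.6, scipy 1.17.1, pandas 2.3.3) and the scripts were tested on simulated data. Alternatives were the scaling (edgeR 4.0.16 TMM, DESeq2 1.42.0 size factors), cell filter, clustering, minimum level, weight of cells and each plate left out. Named genes are the 10 members, the 3 genes most alike to each member that reached 10 CPM, and pathway genes that were apart or reached 10 CPM. The members and lists were chosen with earlier results of these data known. Cells of plates, clusters and Y-linked counts that the text singles out beyond this were chosen after their values were seen.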

Additional observations from a re-analysis of the deposited data

Results flagged for a closer look

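*Id1* in the proliferating cluster lay below the rest of the mesenchyme on the Nkx2.5 plates and level with or slightly above it on the Prox1 plates. Set against the rest of the mesenchyme of the same plate, its level was 0.769 times on plate 6A and 0.925 times on plate 6B of the Nkx2.5 line, and 1.13 times on plate 8A and 1.01 times on plate 8B of the Prox1 line. It was singled out because both plates of each line lay on the same side of 1 and those of the other line on the opposite side. The difference was not tested, the cluster held 16, 18, 6 and 9 cells on these plates, and the Nkx3.2 plates lay on either side (0.815 and 1.29).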

How the results depend on the processing

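The members apart in each comparison, *Bmp7*, *Bmp4* and *Bmp5* (epithelium), *Bmp7* and *Id1* (endocrine), *Id3* (mesothelium and the Nkx lines) and *Bmp5* (Prox1 line), were apart under every alternative that gave a value, although 9 of the 63 left a comparison with 1 pair (epithelium, endocrine or mesothelium). Of 303 alternative values for 26 member ratios, 293 moved by no more than 1 SD of the log2 ratios of the pairs, 10 moved more, and 0 of the ratios of members apart changed direction. Shares of cells moved outside their interval in 30 of 200 alternatives and places by level per length changed in 7 of 50. Without a minimum level the count of members apart rose to 6 (epithelium), 5 (endocrine) and 2 (mesothelium), beside 14%, 18.4% and 15.9% of all genes. With the mean of per-cell CPM it was 2 between the Nkx lines (*Id2* and *Id3*, beside 3.11% of all genes), and with clusters 0, 1, 3 and 5 alone, an alternative chosen after seeing the data, it was 2 in the Prox1 line (*Bmp5* and *Bmp7*, beside 3.43%). With plates left out in turn the counts ran from 3 to 3 (epithelium), 2 to 3 (endocrine), 1 to 2 (mesothelium, 2 without plate 6A, with *Bmp7*), 1 to 4 (Nkx lines, 3 without 6A, 2 without 6B and 4 without 7B) and 1 to 3 (Prox1 line, 2 without 7B and 3 without 8A). The share of all genes apart was then 32.1% to 33.5% (epithelium), 47.7% to 49.3% (endocrine), 14% to 34.6% (mesothelium), 5.93% to 12.7% (Nkx lines) and 5% to 9.93% (Prox1 line). The added calls between the Nkx lines were *Id1*, *Id2* or *Bmp4*, all lower in the Nkx2.5 line. *Bmp7* in mesothelium-like cells fell to 0.744 times the mesenchymal level without plate 7B. The cause was not tested. No paired analysis was possible because replicate numbers only name cells and pair none across lines. Depth limits *Bmp2*, *Bmper*, *Nog* and *Grem1*, whose shares rest on 2 to 22 cells.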

Other observations

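The 2 Prox1-line cells that clustered with the mesothelium carried endocrine progenitor genes, with *Neurog3* at 2069 CPM and *Pax4* at 743 CPM, and no *Upk3b*. Neither held a count of *Id2*, *Id3*, *Bmp4* or *Bmp7*, and *Id1* was at 0 in the cell of plate 8A and 87.6 CPM in the cell of plate 8B. For comparison *Id2* was detected in 13 and *Id3* in 14 of the 19 endocrine-like cells. These cells were singled out after their values were seen, and 2 cells allow no comparison.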
